A study of Homo sapiens with 12 samples.

Results

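The HOX genes were read in 12 RNA-seq libraries of WI-38 cells, human diploid fibroblasts derived from fetal lung. The members were every gene whose identifier maps to a protein-coding symbol made of HOX, a cluster letter from A to D and a number, which gave 39 genes of the 57773 in each deposited count table. The study examined how senescent cells depend on the growth factor BDNF and its receptor TrkB, the product of NTRK2. Each of 4 groups had 3 libraries of poly(A) RNA. The siCtrl_Prolif group received a non-targeting siRNA pool and vehicle (DMSO), and it continued to proliferate. The siCtrl_Sen group received the same pool and was made senescent with 50 µM etoposide, a topoisomerase II poison that breaks DNA. The siNTRK2_Sen and siBDNF_Sen groups received pools against NTRK2 or BDNF and the same etoposide treatment. All groups were transfected with 25 nM siRNA and were cultured for 8 days. The series is from a single cell line, and the labels do not say whether the 3 libraries of a group came from separate cultures. The study's reporting summary states in general that cell experiments were repeated independently with the tested groups kept together, without naming these libraries. If they were not separate cultures, the p-values measure only the spread between these libraries.

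HOX genes encode homeodomain transcription factors that pattern the body along its head-to-tail and limb axes. They lie in clusters in which the order of genes follows the order of their expression domains, from anterior paralogs with low numbers to posterior paralogs with high numbers. Cultured fibroblasts keep much of the HOX pattern of the body site they came from, which serves as a molecular record of position, and Polycomb and Trithorax complexes maintain the silent and active states. HOX proteins often bind DNA together with TALE homeodomain partners of the PBX, MEIS and PKNOX families, and retinoic acid is a classic inducer of the anterior paralogs.

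Promoter sequences from RefSeq (GRCh38.p14) were found for 20 of the 39 HOX genes. Among the entries absent from that table were HOXA5, HOXB2 to HOXB9, HOXB13, HOXC6, HOXC8 to HOXC13 and HOXD9. The 250 bases before the first listed start of each gene were searched on both strands for 8 motifs: CG, the TATA box letters TATAAA, the CCAAT box, the GC box letters GGGCGG, the letters TGACAG (bound by MEIS proteins), TGATTGAT and the looser TGATTNAT (the letters of PBX and HOX pairs, of which the first is a case of the second) and TTTATGGN. CCAAT was present in 17 of the 20 HOX windows and in 33% of the windows of all 27303 genes. TATAAA was present in 4 of 20 against 11.1%, TGACAG in 2 of 20 against 13.1%, and GGGCGG in 10 of 20 against 42.3%. TGATTGAT and TGATTNAT were each present in 2 of 20 against 0.472% and 2.59%, TTTATGGN in 1 of 20 against 2.42%, and CG in 20 of 20 against 93.6%. HOXC4 and HOXC5 share a window and were both counted. The 4 windows below are shown because HOXA7 was called lower with siNTRK2 and HOXA11 had more counts in siCtrl_Sen than in siCtrl_Prolif, while HOXA2, which was expressed, and HOXD11, which was near 0, are the HOX genes whose windows hold the PBX and HOX letters. Capitals mark the letters TATAAA, the CCAAT box, the letters TGACAG and the letters TGATTGAT on either strand, so that ATTGG is CCAAT and ATCAATCA is TGATTGAT on the other strand. HOXA2 lies at chr7:27102684-27102933, HOXA7 at chr7:27156676-27156925 and HOXA11 at chr7:27185233-27185482, all on the minus strand, and HOXD11 at chr2:176107030-176107279 on the plus strand (GRCh38.p14).
HOXA2: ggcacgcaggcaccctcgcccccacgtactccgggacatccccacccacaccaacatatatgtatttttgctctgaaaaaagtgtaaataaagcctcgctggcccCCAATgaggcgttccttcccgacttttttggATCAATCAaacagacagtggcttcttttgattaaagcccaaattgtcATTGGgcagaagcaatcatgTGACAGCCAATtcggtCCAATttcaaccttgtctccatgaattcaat
HOXA7: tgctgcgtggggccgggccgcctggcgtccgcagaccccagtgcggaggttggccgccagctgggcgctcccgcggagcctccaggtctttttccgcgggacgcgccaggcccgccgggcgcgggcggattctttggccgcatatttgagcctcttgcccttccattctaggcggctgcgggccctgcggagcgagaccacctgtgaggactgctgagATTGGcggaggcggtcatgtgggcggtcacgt
HOXA11: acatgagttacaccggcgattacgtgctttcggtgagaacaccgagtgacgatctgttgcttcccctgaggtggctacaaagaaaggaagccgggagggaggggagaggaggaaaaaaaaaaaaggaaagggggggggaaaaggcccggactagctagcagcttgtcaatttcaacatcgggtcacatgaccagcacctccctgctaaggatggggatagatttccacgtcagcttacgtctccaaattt
HOXD11: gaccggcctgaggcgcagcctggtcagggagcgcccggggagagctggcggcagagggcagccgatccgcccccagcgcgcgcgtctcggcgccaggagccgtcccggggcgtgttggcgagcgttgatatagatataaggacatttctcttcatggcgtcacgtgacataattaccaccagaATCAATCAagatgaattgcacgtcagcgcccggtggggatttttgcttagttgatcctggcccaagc
The HOXA2 window held 4 CCAAT, 1 TGACAG and 1 TGATTGAT, and its TGACAG runs directly into a CCAAT. The HOXA7 window held 28 CG and 1 CCAAT, the HOXA11 window 11 CG and none of the capitalised motifs, and the HOXD11 window 23 CG and 1 TGATTGAT. These matches describe letters in a window and are not binding sites.

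The libraries held between 31567912 (siBDNF_Sen replicate 1) and 72328151 (siCtrl_Prolif replicate 2) counts. In a library, 3 counts therefore corresponded to 0.0427 to 0.0916 normalized CPM, that is, counts scaled with TMM factors, and floors and intervals here cover counting error only. The siRNA labels were checked first. NTRK2, a gene of low level in these cells, had 7, 15 and 10 counts in siCtrl_Sen and 0 counts in all 3 siNTRK2_Sen libraries. With a floor of 3 counts summed over the group in place of 0, this is 10.2-fold lower. The 95% counting interval of the ratio, a wider limit, reaches up to 0.127 and so allows a smaller drop. BDNF was 161, 157 and 169 CPM in siCtrl_Sen and 48.1, 48.9 and 44.3 CPM in siBDNF_Sen. The BDNF groups did not overlap, and the log2 fold change was −1.79 (SE 0.05, adjusted p = 1.72e-18, edgeR quasi-likelihood test). MKI67, a proliferation marker, was 15.8, 16.9 and 16.4 CPM in siCtrl_Prolif and 1.64, 1.38 and 0.814 CPM in siCtrl_Sen. CDKN1A, which encodes the cell cycle inhibitor p21, was 929, 913 and 966 CPM in siCtrl_Prolif and 2961, 2774 and 2896 CPM in siCtrl_Sen.

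The cell type label was checked with markers. All 9 fibroblast markers passed the filter on low counts, and their sum was 32175 to 34101 CPM in siCtrl_Prolif, 23207 to 25006 in siCtrl_Sen, 27213 to 30122 in siNTRK2_Sen and 23991 to 24559 in siBDNF_Sen, with COL1A1 the most abundant. Of the 9, 1 was called higher and 7 lower in siCtrl_Sen (all genes: 29.8% higher, 28.3% lower). With siNTRK2, 5 were higher and 1 lower (all genes: 11.1% higher, 10% lower). With siBDNF, 1 was higher and 6 lower (all genes: 10.3% higher, 10.2% lower). THY1 was 543, 549 and 594 CPM in siCtrl_Prolif and 642, 638 and 653 CPM in siCtrl_Sen. DCN was 556, 626 and 578 CPM in siCtrl_Sen and 370, 382 and 376 CPM in siBDNF_Sen. The 7 epithelial markers summed to 0.893 to 1.13 CPM in siCtrl_Prolif, 3.62 to 4.47 in siCtrl_Sen, 3.15 to 4.36 in siNTRK2_Sen and 5.01 to 6 in siBDNF_Sen, led by CLDN4, and the lung epithelial genes NKX2-1 and SFTPC had at most 5 and 7 counts in any library. The 4 endothelial markers found summed to 75.2 to 78.0 CPM in siCtrl_Prolif, 34.4 to 36.2 in siCtrl_Sen, 34.8 to 40.9 in siNTRK2_Sen and 24.6 to 25.7 in siBDNF_Sen, nearly all of it TEK. TEK was called lower in siCtrl_Sen, while VWF, at 0.789, 1.13 and 0.379 CPM in siCtrl_Prolif and 1.69, 1.77 and 2.11 CPM in siCtrl_Sen, was called higher. KDR was called higher too, at 0, 9 and 3 counts in siCtrl_Prolif and 15, 16 and 16 in siCtrl_Sen, but passed the filter through senescent groups. TEK was also called lower in siBDNF_Sen than in siCtrl_Sen and higher in siNTRK2_Sen than in siBDNF_Sen. The 5 blood markers summed to 0.157 to 0.215 CPM in siCtrl_Prolif, 1.70 to 1.93 in siCtrl_Sen, 1.26 to 1.55 in siNTRK2_Sen and 2.11 to 2.19 in siBDNF_Sen, led by PTPRC, which had 0 counts in all 3 siCtrl_Prolif libraries. The 4 smooth muscle markers summed to 381 to 434 CPM in siCtrl_Prolif, 293 to 321 in siCtrl_Sen, 278 to 284 in siNTRK2_Sen and 202 to 214 in siBDNF_Sen, led by ACTG2. ACTG2 was called lower in siCtrl_Sen, while CNN1 was called higher, at 48.7, 49.6 and 54.9 CPM in siCtrl_Prolif and 85.6, 80.1 and 85.1 CPM in siCtrl_Sen. These sums moved with the groups, and their part in the HOX results was not tested. In bulk RNA, fewer cells of a type and less RNA per cell cannot be told apart.

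Expression lay in the HOXA and HOXB clusters. Of the 39 genes, 20 passed the filter on low counts: 10 of 11 HOXA genes, 8 of 10 HOXB genes, 2 of 9 HOXC genes and 0 of 9 HOXD genes. In siCtrl_Prolif, HOXB genes held 81.7, 82.2 and 82.1% of all HOX counts, and HOXA genes held 17.8, 17.3 and 17.5%. In siCtrl_Sen, the HOXB share was 86.3, 86.8 and 86.9%, and the HOXA share was 13, 12.5 and 12.5%. The siNTRK2_Sen libraries had HOXB shares of 88.2, 88.0 and 87.1% and HOXA shares of 11.4, 11.46 and 12.1%. The siBDNF_Sen libraries had HOXB shares of 85.3, 86.6 and 86.0% and HOXA shares of 14.2, 12.8 and 13.3%. The HOXB share was lowest in the 3 proliferating libraries. The HOX genes summed to 191 to 205 CPM in siCtrl_Prolif, 250 to 256 CPM in siCtrl_Sen, 226 to 236 CPM in siNTRK2_Sen and 243 to 253 CPM in siBDNF_Sen.

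Levels were compared between genes as normalized CPM per kb of merged exons. By the mean level per kb over all libraries, HOXB5 came first at 30.1, followed by HOXB6 at 16.4, HOXB2 at 11.9, HOXB7 at 10.9, HOXA5 at 8.81, HOXB3 at 5.38 and HOXB4 at 5.35. HOXA5 and HOXB5, paralogs with known roles in lung morphogenesis, thus led their clusters per kb. Per kb, HOXA4 followed at 1.94, HOXB8 at 1.61, HOXA3 at 1.28, HOXA7 at 1.04 and HOXA2 at 0.878. Per kb, the posterior and HOXC genes that passed were lower, with HOXC8 at 0.235 and HOXA10 at 0.136. The order depends on the length used: per kb of the longest transcript, HOXB3 was 9.49 and came before HOXA5 at 9.07. Among the 15077 tested protein-coding genes, the mean level per kb of HOXB5 exceeded 91.3% and that of HOXA5 73.2%. Within siCtrl_Prolif, HOXB5 at 19.4 to 22.5 CPM per kb did not overlap HOXB6 at 12.6 to 13.8 CPM per kb, and HOXB6 did not overlap HOXB2. The order of mean levels per kb within siCtrl_Prolif differs from that over all libraries, with HOXA5 above HOXB7 and HOXB8 below HOXA2. Neighbours in the siCtrl_Prolif order whose library levels per kb overlapped were HOXB2 and HOXA5, HOXA5 and HOXB7, HOXA3 and HOXA7, HOXA7 and HOXA2, HOXA2 and HOXB8, and all pairs from HOXA10 down. HOXB3 shares 477 bases of exon with HOXB4 and HOXB6 on the same strand, so reads could be split between them or lost. The library preparation kept strand, but whether the reads were counted by strand is not given, so reads of a gene and of its antisense partner cannot be told apart.

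**Figure D1:**
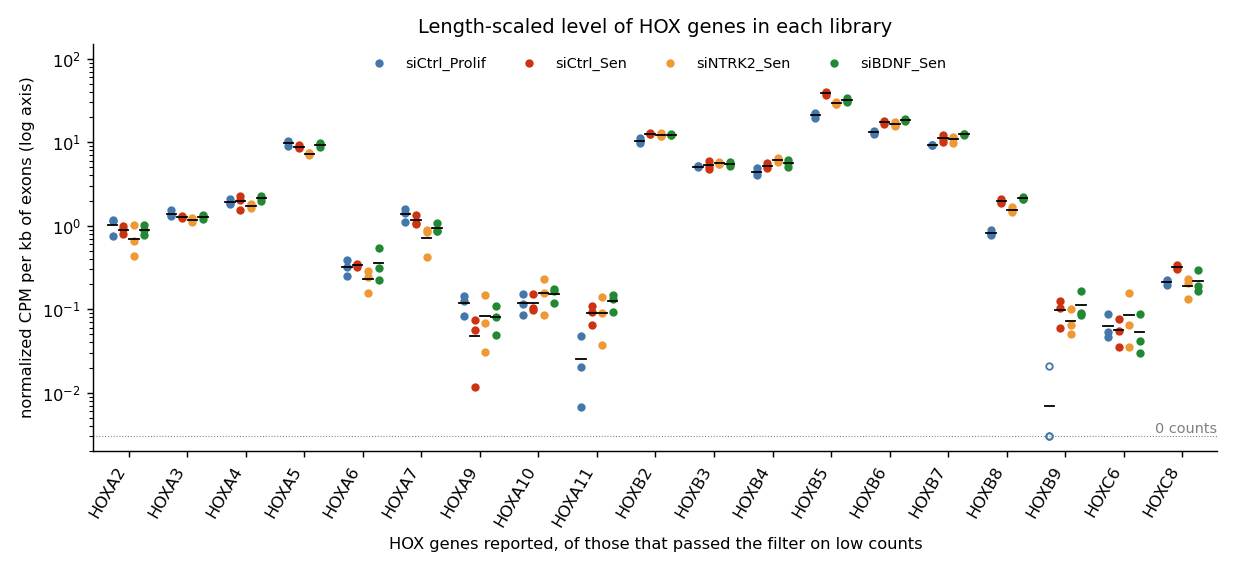
Length-scaled level (normalized CPM per kb of exons, log axis) of 19 of the 20 HOX genes that passed the filter. Each point is a library coloured by group and black lines are group means. The proliferating HOXB9 libraries are drawn open, with those at 0 counts placed on the dotted line. HOXB5 lies highest in all groups and HOXB9 lowest in siCtrl_Prolif.

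The siCtrl_Sen against siCtrl_Prolif comparison asks how the HOX pattern differed after etoposide. A gene was called when its adjusted p, over the 21518 genes tested, was below 0.05. Of the 20 HOX genes tested, 8 were called, all higher, which is 7 of 8 tested HOXB genes, 1 of 10 HOXA genes and 0 of 2 HOXC genes. Among all genes tested 58.1% were called, 29.8% higher and 28.3% lower. With edgeR 0 HOX genes were called lower, and HOXA9 was lower at an unadjusted p = 0.0481 in the edgeR quasi-likelihood test. The libraries of the compared groups did not overlap for 10 HOX genes of 20, 9 above and 1 below, and for 61.3% of all genes. The median log2 fold change was 0.15 for the HOX genes tested and 0.02 for all genes. Setting HOXB9 at its lower ratio limit, 5.31, left the HOX median at 0.15. That step could not move the median, because the limit still lies above it. HOXB9 and HOXA11 both lie above the HOX median, and a median without them was not computed. HOXB9 and HOXA11 passed the filter mainly through the senescent groups, where they were high, so these counts are not over all members, and the tests of HOXB9 and HOXA11 are not used here as support. Without them 6 of the called HOX genes remain, all in the HOXB cluster. With no filter on low counts 10 HOX genes were called, and with at least 10 counts required in every library 6 were. With at least 1 on the log2 scale also required, 3 HOX genes were called (HOXB8 and the low-count HOXB9 and HOXA11) and 16.7% of all genes.

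HOXB5 was 39.1, 36.1 and 41.8 CPM in siCtrl_Prolif and 73.8, 68.7 and 71.6 CPM in siCtrl_Sen. The senescent libraries were higher with no overlap, with a log2 fold change of 0.88 (SE 0.06, adjusted p = 1.57e-12, edgeR quasi-likelihood test). HOXB8, a paralog known for its role in haematopoietic progenitors, was 2.12, 1.89 and 1.87 CPM in siCtrl_Prolif and 5.08, 4.57 and 4.50 CPM in siCtrl_Sen. These groups did not overlap either, and the log2 fold change was 1.26 (SE 0.13, adjusted p = 5.47e-09). HOXB6 was 33.9, 32.8 and 35.8 CPM in siCtrl_Prolif and 46.7, 43.1 and 45.6 CPM in siCtrl_Sen, a log2 fold change of 0.40 (SE 0.06, adjusted p = 1.93e-06). HOXB6 was higher in each senescent library than in each proliferating one. HOXB2, a hindbrain patterning paralog, had a log2 fold change of 0.27 (SE 0.06, adjusted p = 5.76e-04) and HOXB7 of 0.27 (SE 0.08, adjusted p = 0.00455), also without overlap. HOXB4, a factor of haematopoietic stem cells, had a log2 fold change of 0.24 (SE 0.09, adjusted p = 0.0316), and this call was lost without any of 4 libraries, siCtrl_Prolif replicate 1 or 3 or siCtrl_Sen replicate 1 or 2, with adjusted p up to 0.163, and also with no filter on low counts (adjusted p = 0.0652). HOXB3 lay at 37.3, 38.3 and 38.1 CPM in siCtrl_Prolif and 38.3, 43.9 and 35.9 CPM in siCtrl_Sen, with overlap between groups and a log2 fold change of 0.05 (SE 0.07, adjusted p = 0.499).

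The low-count HOX genes were given by counts. HOXB9 had 0, 0 and 2 counts in siCtrl_Prolif and 15, 9 and 19 counts in siCtrl_Sen. The pooled ratio was 20.4, with a 95% counting interval of 5.31 to 174. With a library left out, the fitted log2 fold change of HOXB9 ranged from 3.36 to 6.86, so its size is not well fixed. HOXA11, a limb and uterus paralog, had 1, 9 and 2 counts in siCtrl_Prolif and 14, 17 and 10 counts in siCtrl_Sen, and its log2 fold change ranged from 1.26 to 2.77 with a library left out. HOXA11 shares 726 bases of exon with the antisense gene HOXA11-AS, and the call was lost without any of 4 libraries, siCtrl_Prolif replicate 1 or 3 or siCtrl_Sen replicate 1 or 2, with adjusted p up to 0.13. HOXA9 moved the other way without passing, at 14, 27 and 16 counts in siCtrl_Prolif and 2, 13 and 10 counts in siCtrl_Sen, a log2 fold change of −1.27 (SE 0.61, adjusted p = 0.0784), and it was called without siCtrl_Sen replicate 2 (adjusted p = 0.0478). The HOXA genes from HOXA2 to HOXA7 had log2 fold changes between −0.23 and 0.04, with none called. HOXA5 was 17.2, 15.5 and 17.6 CPM in siCtrl_Prolif and 15.8, 14.7 and 15 CPM in siCtrl_Sen, with overlap and a log2 fold change of −0.14 (SE 0.07, adjusted p = 0.118), and it was called without siCtrl_Prolif replicate 2 (adjusted p = 0.0435).

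**Figure D2:**
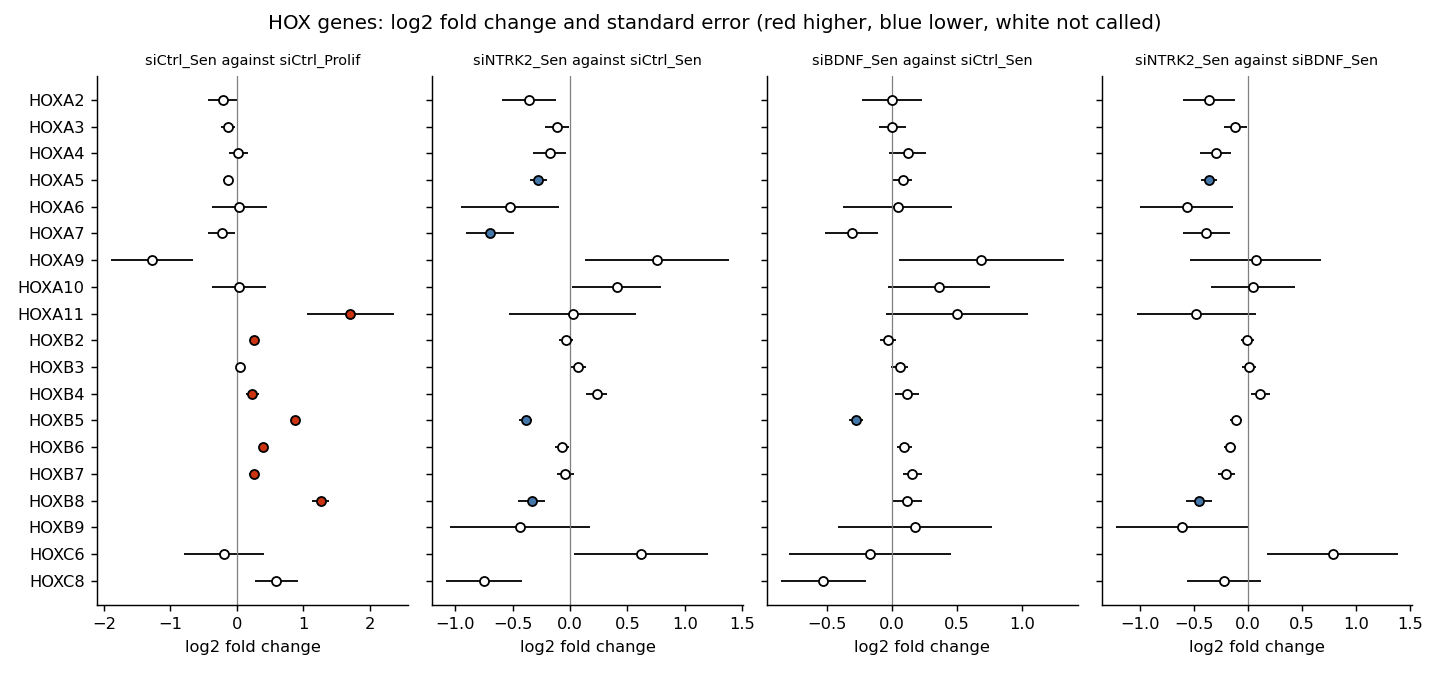
Log2 fold change with its standard error (horizontal bars) for 19 HOX genes in each of the 4 comparisons, on axes of different range. Red marks genes called higher, blue lower and white not called. HOXB9 is left out of the first panel because it was at or near 0 counts in siCtrl_Prolif.

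Of the 19 HOX genes that did not pass the filter, the summed counts were 6, 12 and 7 in siCtrl_Prolif, 55, 53 and 38 in siCtrl_Sen, 24, 32 and 44 in siNTRK2_Sen, and 22, 65 and 68 in siBDNF_Sen. Every senescent library exceeded every proliferating one in these sums. The HOXD genes had 0 counts in the 3 siCtrl_Prolif libraries and 18, 4 and 16 in siCtrl_Sen. Many other genes behaved in this way: of 4308 other protein-coding genes that did not pass, 14.1, 14.6 and 13.1% had a count in siCtrl_Prolif, against 51.8, 54.3 and 48.4% in siCtrl_Sen. With such low counts, HOXB1, HOXD1, HOXD4, HOXD9, HOXD12 and HOXD13 never exceeded 3 counts in any library and were not detected.

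**Figure D3:**
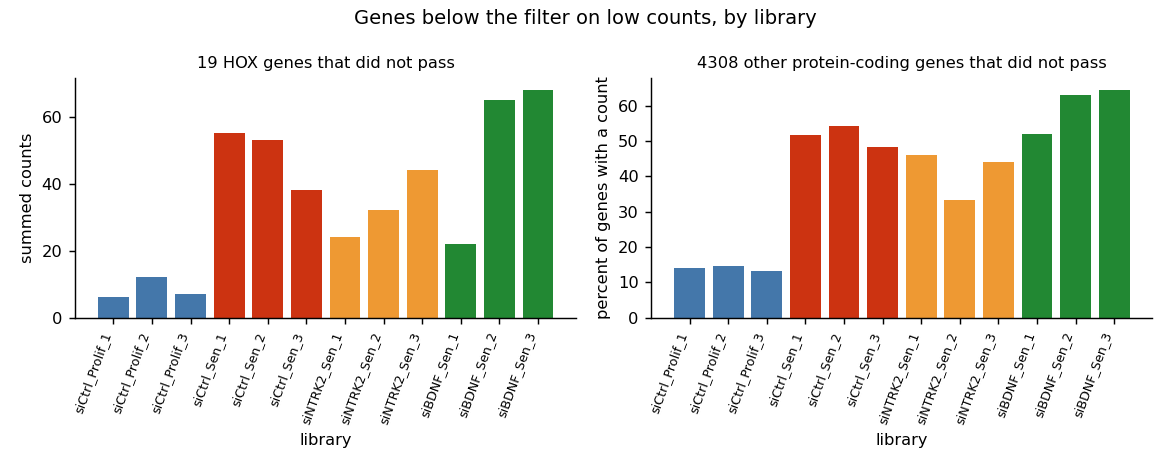
Left, summed counts of the 19 HOX genes below the filter in each library, which are not scaled for depth. Right, percent of 4308 other protein-coding genes below the filter that had a count. Both are lowest in the 3 proliferating libraries, at 6 to 12 counts and 13.1 to 14.6%.

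The siNTRK2_Sen against siCtrl_Sen comparison asks what silencing NTRK2 did to the senescent HOX pattern. It called 4 of 20 tested HOX genes, all lower, where 21.1% of all genes were called, 11.1% higher and 10% lower. The libraries did not overlap for 9 HOX genes and for 32.8% of all genes, and with a log2 fold change above 1 also required 0 HOX genes and 0.957% of all genes were called. The median log2 fold change was −0.15 for the HOX genes and −0.00 for all genes. HOXB5 was 55.7, 54.0 and 53.8 CPM in siNTRK2_Sen against 73.8, 68.7 and 71.6 CPM in siCtrl_Sen. All siNTRK2_Sen libraries were lower, with a log2 fold change of −0.39 (SE 0.06, adjusted p = 1.67e-05), and they stayed above the siCtrl_Prolif libraries. HOXA5 was 12.8, 12 and 12.7 CPM in siNTRK2_Sen and had a log2 fold change of −0.28 (SE 0.08, adjusted p = 0.00986). All siNTRK2_Sen libraries of HOXA5 were below those of siCtrl_Sen, and the call was lost without siCtrl_Sen replicate 1 (adjusted p = 0.055). HOXA7 had 2, 1.01 and 2.12 CPM in siNTRK2_Sen against 2.58, 2.53 and 3.27 CPM in siCtrl_Sen, a log2 fold change of −0.70 (SE 0.21, adjusted p = 0.0185). The lowest HOXA7 library was siNTRK2_Sen replicate 2, and without it the adjusted p was 0.102. Without siCtrl_Sen replicate 3 the adjusted p was 0.108. HOXB8 was 3.48, 3.73 and 4 CPM in siNTRK2_Sen, below the siCtrl_Sen libraries, with a log2 fold change of −0.34 (SE 0.12, adjusted p = 0.0452). The HOXB8 call was lost in 9 of 13 alternatives, with adjusted p of up to 0.174, and each of siCtrl_Sen replicates 1 to 3 and siNTRK2_Sen replicates 1 and 2 ended it when left out. HOXB4 had 12.8, 12.3 and 11.7 CPM in siNTRK2_Sen, above the siCtrl_Sen libraries, and a log2 fold change of 0.23 (SE 0.09) that was not called (adjusted p = 0.0719), but was without siCtrl_Sen replicate 2 (adjusted p = 0.0387). HOXA2, not called either, had an adjusted p of 0.0302 without siNTRK2_Sen replicate 3.

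Beside these values, MKI67 was 4.35, 3.85 and 4.36 CPM in siNTRK2_Sen, above siCtrl_Sen, and CDKN1A was 2087, 1955 and 2055 CPM, below it. Both markers lay between siCtrl_Sen and siCtrl_Prolif, and their part in the HOX values was not tested. Comparisons with siCtrl_Sen share its 3 libraries, so the values of the silenced groups are given side by side and are not independent.

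The siBDNF_Sen against siCtrl_Sen comparison gave 1 called HOX gene of 20, lower, where 20.5% of all genes were called, 10.3% higher and 10.2% lower. The libraries did not overlap for 4 HOX genes and for 37.3% of all genes, and with a log2 fold change above 1 also required 0 HOX genes and 0.609% of all genes were called. This was HOXB5, at 55.6, 58.5 and 62.2 CPM in siBDNF_Sen. All 3 libraries were below siCtrl_Sen, with a log2 fold change of −0.28 (SE 0.06, adjusted p = 7.86e-04). HOXB7 was 18.7, 18.9 and 19 CPM, above the siCtrl_Sen libraries, and was not called (log2 fold change 0.16, SE 0.08, adjusted p = 0.16). HOXB8 was 5.04, 4.99 and 5.30 CPM and overlapped siCtrl_Sen, with a log2 fold change of 0.12 (SE 0.12, adjusted p = 0.561). HOXA5 was 17, 14.9 and 16.5 CPM and also overlapped siCtrl_Sen. The median log2 fold change was 0.09 for HOX genes and 0.00 for all genes. MKI67 was 1.95, 2.79 and 2.30 CPM in siBDNF_Sen, above every siCtrl_Sen library (log2 fold change 0.91, SE 0.18, adjusted p = 5.53e-04), while CDKN1A, at 2753, 2766 and 2860 CPM, overlapped siCtrl_Sen. With library totals in place of TMM factors, 69.3% of all called genes were higher against 50.5% here, and HOXB7 passed (adjusted p = 0.0478).

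**Figure D4:**
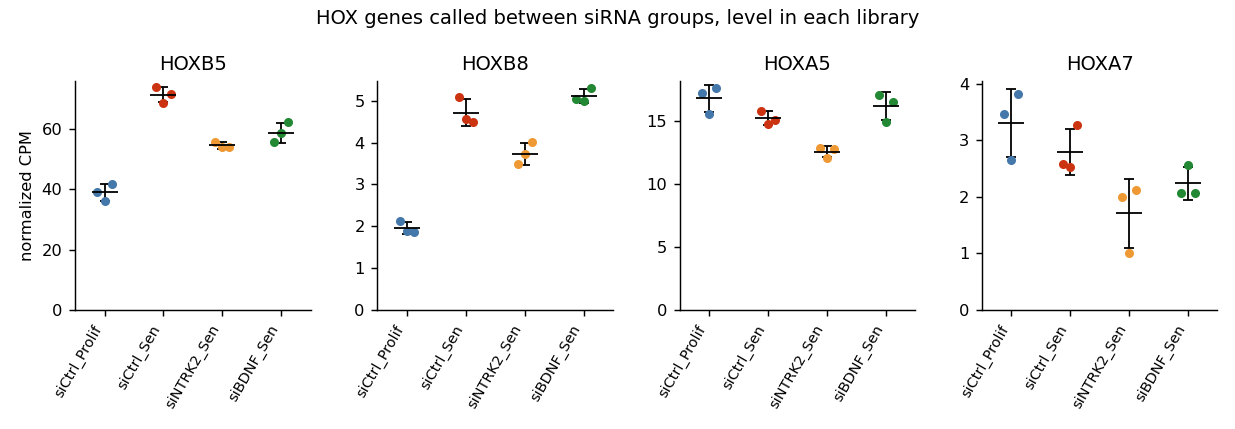
Normalized CPM of 4 HOX genes in each library, with group mean and SD (n = 3) in black. HOXB5 was 53.8 to 55.7 CPM in siNTRK2_Sen and 55.6 to 62.2 CPM in siBDNF_Sen, below 68.7 to 73.8 CPM in siCtrl_Sen and above 36.1 to 41.8 CPM in siCtrl_Prolif.

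The direct comparison of siNTRK2_Sen with siBDNF_Sen asks where the silenced groups differed. It called 3 of 20 HOX genes, all lower in siNTRK2_Sen, where 16.7% of all genes were called, 8.84% higher and 7.86% lower. The libraries did not overlap for 6 HOX genes and for 34.2% of all genes, and with a log2 fold change above 1 also required 0 HOX genes and 1.16% of all genes were called. HOXA5 had a log2 fold change of −0.36 (SE 0.08, adjusted p = 0.0014), with no overlap between the groups. HOXB8 had a log2 fold change of −0.45 (SE 0.12, adjusted p = 0.00907), also with no overlap, and the call was lost without siBDNF_Sen replicate 3 (adjusted p = 0.0525). HOXA2 was called only without siNTRK2_Sen replicate 3 (adjusted p = 0.0328). HOXB5 was −0.11 on the log2 scale (SE 0.06, adjusted p = 0.199). HOXB6, at −0.17 (SE 0.06, adjusted p = 0.0509), lay at the threshold and was called under 6 of 13 alternatives. The median log2 fold change was −0.21 for HOX genes and −0.00 for all genes. With library totals in place of TMM factors, 37.7% of called genes were higher against 52.9% here, and HOXB6 and HOXB7 were also called (adjusted p = 0.0128 and 0.0346).

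Noncoding RNAs of the HOX clusters were measured beside the coding genes. Of 23 found, 8 passed the filter, with HOXB-AS3 the most abundant. HOXB-AS3, which lies antisense to parts of HOXB3, HOXB5 and HOXB6, was 36.8, 39 and 40.5 CPM in siCtrl_Prolif and 59.2, 56.9 and 56.9 CPM in siCtrl_Sen. It was higher with no overlap, by 0.58 on the log2 scale (SE 0.05, adjusted p = 1.85e-09). It was lower with siNTRK2 by a log2 fold change of −0.23 (SE 0.05, adjusted p = 0.00274). HOXB-AS1 was higher in siCtrl_Sen (log2 fold change 0.23, SE 0.09, adjusted p = 0.0254), and HOXA-AS2 was lower (−0.69, SE 0.12, adjusted p = 3.42e-05). HOXA-AS3, which shares 1507 of the 2411 merged exon bases of HOXA7, was lower with siNTRK2 (log2 fold change −0.69, SE 0.21, adjusted p = 0.0181), so the HOXA7 and HOXA-AS3 values cannot be told apart without the strand setting. HOTAIRM1 was lower with siNTRK2 (log2 fold change −0.40, SE 0.13, adjusted p = 0.0327) and lower than with siBDNF (−0.44, SE 0.13, adjusted p = 0.0224). Of the 8, 2 were called higher and 1 lower in siCtrl_Sen (all genes: 29.8% higher, 28.3% lower) and 0 higher and 3 lower with siNTRK2 (all genes: 11.1% higher, 10% lower). With siBDNF 0 of 8 were called by edgeR against siCtrl_Sen, where 20.5% of all genes were called, and 1 was called between the silenced groups, where 16.7% were. HOTAIR, HOXB-AS4 and HOXC-AS1 had at most 1, 1 and 3 counts in any library, and HOXD-AS2, MIR196A1, MIR196A2, MIR196B and MIR615 had 0.

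Most TALE cofactors fell in senescence. Of 9 genes, 7 were lower in siCtrl_Sen and 0 were higher (all genes: 29.8% higher, 28.3% lower), with a median log2 fold change of −0.42 against 0.02 for all genes. MEIS2 was 36.1, 33.2 and 31.8 CPM in siCtrl_Prolif and 10.5, 12.6 and 10.5 CPM in siCtrl_Sen. Its groups did not overlap, and the log2 fold change was −1.60 (SE 0.08, adjusted p = 9.09e-15). MEIS1 had a log2 fold change of −1.09 (SE 0.06, adjusted p = 2.99e-14), PBX2 of −0.81 (SE 0.05, adjusted p = 1.12e-12) and PKNOX2 of −0.42 (SE 0.13, adjusted p = 0.00811). With siNTRK2, 3 were higher, namely MEIS1 (log2 fold change 0.35, adjusted p = 1.05e-04), PKNOX2 (0.37, adjusted p = 0.045) and PBX2 (0.23, adjusted p = 0.00252), and 1 was lower, MEIS2 (−0.53, adjusted p = 6.54e-05), where 11.1% of all genes were higher and 10% lower. With siBDNF, PBX2 was higher (0.16, adjusted p = 0.0376) and MEIS2 lower (−0.28, adjusted p = 0.0184), where 10.3% of all genes were higher and 10.2% lower. Between the silenced groups, MEIS1 was higher with siNTRK2 (0.26, adjusted p = 0.00239) and PBX3 and PKNOX1 were lower (−0.23 and −0.18, adjusted p = 0.0457 and 0.0228), where 8.84% of all genes were higher and 7.86% lower.

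**Figure D5:**
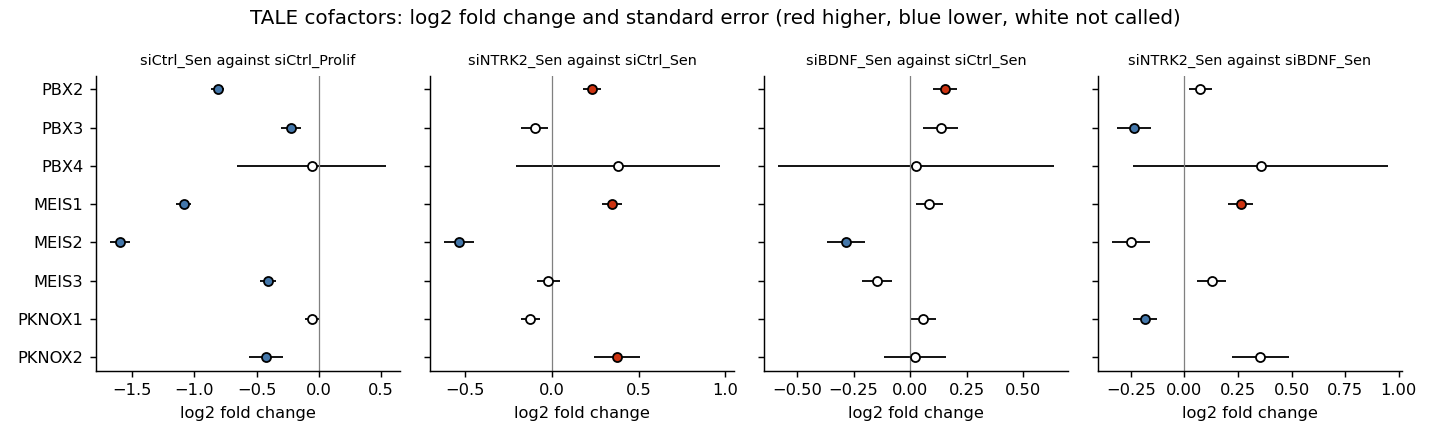
Log2 fold change with its standard error (horizontal bars) for 8 TALE cofactors in each comparison, on axes of different range. In the first panel 6 genes are called lower, from −0.22 to −1.60, and none higher.

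Polycomb genes, whose complexes keep silent HOX genes off, include more called lower than higher in senescence. Of 27 genes, 17 were lower and 5 higher in siCtrl_Sen (all genes: 29.8% higher, 28.3% lower), with a median log2 fold change of −0.36. EZH2, the H3K27 methyltransferase, was 13.7, 13.2 and 12.7 CPM in siCtrl_Prolif and 2.73, 2.21 and 2.56 CPM in siCtrl_Sen. This was a log2 fold change of −2.40 (SE 0.11, adjusted p = 1.99e-15) with no overlap. CBX2 had −2.29, PHF19 −1.13, KDM2B −0.86 and PCGF5 −0.77 on the log2 scale, all with adjusted p of at most 1.59e-08. With siNTRK2, 3 of 27 were higher and 0 lower (all genes: 11.1% higher, 10% lower), namely JARID2 (0.42), MTF2 (0.38) and PHC1 (0.26). With siBDNF, 7 were higher and 1 lower (all genes: 10.3% higher, 10.2% lower), with CBX2 (0.64), MTF2 (0.39), JARID2 (0.29), SUZ12 (0.24) and CBX6 (0.20) leading. Between the silenced groups, PHC1 was higher (0.17) and CBX6 lower (−0.16) with siNTRK2 (all genes: 8.84% higher, 7.86% lower). Of 14 Trithorax genes and H3K27 demethylases, which favour active states, 3 were higher and 4 lower in siCtrl_Sen, against the shares of all genes given above, led by PSIP1 (−1.16), WDR5 (−0.64), KDM6B (0.33), KMT2A (0.33) and KMT2D (0.30). With siNTRK2, where 11.1% of all genes were higher, 7 of these 14 were higher and 0 lower, led by KMT2C (0.53), KMT2D (0.44), KMT2A (0.44), KMT2B (0.37) and KDM6A (0.31). With siBDNF, where 10.3% of all genes were higher, 7 of 14 were also higher and 0 lower, led by KMT2D (0.73), KMT2C (0.68), KMT2A (0.65), KMT2B (0.32) and KDM6B (0.32). KMT2D was lower with siNTRK2 than with siBDNF (−0.29, adjusted p = 0.0085).

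Retinoic acid genes changed in both directions. Of 21 genes 15 were tested, 8 higher and 4 lower in siCtrl_Sen (all genes: 29.8% higher, 28.3% lower), with a median log2 fold change of 0.35. DHRS3, a retinal reductase, had a log2 fold change of 1.37 (adjusted p = 5.99e-14). RARB, a receptor, had 2, 3 and 5 counts in siCtrl_Prolif and 18, 32 and 10 in siCtrl_Sen. STRA6, a retinol transporter, had 4, 6 and 2 counts in siCtrl_Prolif and 16, 16 and 17 in siCtrl_Sen. CYP26B1, which degrades retinoic acid, had 8, 18 and 7 counts in siCtrl_Prolif and 67, 78 and 80 in siCtrl_Sen. CYP26B1, RARB and STRA6 are in the count of higher genes but passed the filter mainly through senescent groups, where they were high, so their tests are not used here as support. DHRS3 was 28.1, 25.2 and 27.8 CPM in siCtrl_Sen, 15.9, 13.5 and 15.3 CPM in siNTRK2_Sen and 20.9, 21.8 and 20.3 CPM in siBDNF_Sen. Among the senescent groups the siNTRK2_Sen libraries were lowest, at −0.86 on the log2 scale (adjusted p = 5.22e-09), and siBDNF_Sen had −0.37 (adjusted p = 6.21e-04). With siNTRK2, 4 of 15 were lower and 0 higher (all genes: 11.1% higher, 10% lower), the others being CRABP2 (−0.48), ALDH1A3 (−0.31) and RDH10 (−0.21). With siBDNF, 2 were lower and 0 higher (all genes: 10.3% higher, 10.2% lower), the other being CRABP2 (−0.20). Between the silenced groups, 6 were lower and 1 higher with siNTRK2 (all genes: 8.84% higher, 7.86% lower), among them CYP26B1 (−0.81), DHRS3 (−0.49) and CRABP2 (−0.28). RXRG and CDX4 had at most 3 counts in any library.

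Among lung and limb positional factors, more were called lower than higher in senescence. Of 20 genes 15 were tested, and 8 were lower and 1 higher in siCtrl_Sen, where 58.1% of all genes were called, 29.8% higher and 28.3% lower, with a median log2 fold change of −0.27. GLI2 had a log2 fold change of −0.95 and GLI3 of −0.71, and NKX3-2 was higher at 1.38. MEOX2 had 22, 18 and 14 counts in siCtrl_Prolif and 2, 3 and 4 in siCtrl_Sen. MEOX2 is in the count of lower genes but was highest in siCtrl_Prolif, through which it passed the filter, so its test is not used here as support. TBX4, which marks lung mesenchyme and hindlimb, was 2.16, 2.50 and 2.44 CPM in siCtrl_Sen and 1.49, 1.47 and 1.47 CPM in siNTRK2_Sen. It was 1.31, 1.64 and 1.44 CPM in siBDNF_Sen. TBX4 was lower in both silenced groups with no overlap, by −0.68 (adjusted p = 0.00477) and −0.68 (adjusted p = 0.00496) on the log2 scale. With siNTRK2, GLI2 was higher (0.60) and TBX4 and TCF21 (−0.23) were lower (all genes: 11.1% higher, 10% lower). With siBDNF, 3 were higher and 3 lower (all genes: 10.3% higher, 10.2% lower), led by TBX4, TCF21 (−0.39), GLI2 (0.37), GLI3 (0.36) and TBX3 (0.35). Between the silenced groups, TBX5 (0.23) and TCF21 (0.15) were higher and TBX3 (−0.35) and GLI3 (−0.28) lower with siNTRK2 (all genes: 8.84% higher, 7.86% lower).

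These values come from a single cell line and a single time after treatment began, and that libraries within a group are separate cultures rests on the study's general statement. RNA levels do not show HOX protein or binding. Low-count genes such as HOXB9, HOXA11 and HOXA9 rest on few reads. Proliferation and cell type markers differ between the groups, cell composition and RNA per cell were not measured, and the part of any of these in the HOX values was not tested. Several calls near the threshold, among them HOXB4, HOXA11 and HOXB8 with siNTRK2, depend on single libraries or settings.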

How the data were processed

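The deposited files hold whole-number read counts per Ensembl gene, 1 file per library. Per the labels and the study's methods, the authors demultiplexed the reads of a stranded mRNA kit with bcl2fastq 2.20.0.422, trimmed them with cutadapt, aligned them with STAR 2.4.0j to hg19 (GRCh37) and counted them with featureCounts 1.6.4. The strand setting and the treatment of overlapping genes are not given in the sources used here. Symbols and exon lengths were found for 55538 of the 57773 genes. Lengths and exon overlaps came from GENCODE annotation in GRCh37 coordinates, another release than the authors used, and promoters from RefSeq in GRCh38.p14. The builds were not mixed.

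Counts were scaled with TMM and tested with edgeR 4.0.16 in R 4.3.3 (quasi-likelihood test, filterByExpr, 1 fit of 12 libraries with a term per group, Benjamini-Hochberg adjustment over 21518 genes), and a gene was called at an adjusted p below 0.05. Alternatives were DESeq2 1.42.0, other scalings, other filters on low counts, a fit of the compared groups alone, a replicate block, a fold threshold, and each library left out. The test was checked on simulated counts for siCtrl_Sen against siCtrl_Prolif. It recovered 80 of 100 genes changed 2-fold and 63 of 100 changed 1.5-fold, with 9 false calls. The simulation changed 200 of 21518 genes, far fewer than the 12501 called in the real comparison. These figures therefore do not give the recovery or false calls of that comparison. No pair of replicates agreed within counting noise (chi-square per gene 3.82 to 13.1). Named genes were the 12 HOX genes of highest mean level per kb, every HOX gene called with an absolute log2 fold change above 0.5, up to 5 called members of each other list per comparison by absolute log2 fold change, and members with at most 3 counts in every library. Other HOX genes were named after their values were seen. The members and lists were chosen with earlier results of these data known. A few genes that the rule takes are not reported here by name and are left out of the figures, and counts and medians over lists include them. List symbols not found in the files were PCGF2, HOXA-AS4, HOXC-AS5, HOXD-AS1, MIR10A and PECAM1.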

Additional observations from a re-analysis of the deposited data

Results flagged for a closer look

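The effects of the siRNA pools differed for HOXA5 and HOXB8 when siNTRK2_Sen was tested directly against siBDNF_Sen with edgeR. The log2 fold change was −0.36 for HOXA5 and −0.45 for HOXB8, each lower in all 3 siNTRK2_Sen libraries than in all 3 siBDNF_Sen libraries. The HOXB8 call was lost without siBDNF_Sen replicate 3 (adjusted p = 0.0525), where 1 HOX gene was still called. The cause of these differences was not tested.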

How the results depend on the processing

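The log2 fold changes of the 20 tested HOX genes were recomputed under 538 combinations of gene, comparison and alternative and 480 with a library left out. Of the first, 514 kept their direction and their side of the threshold, 7 lost the call, 7 gained it and 10 changed sign. Of the second, 414 kept both, 22 lost the call, 6 gained it and 38 changed sign. No called value changed sign under any alternative run (0 of these). The cause of each change was not tested.

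With a log2 fold change above 1 also required, 3604, 206, 131 and 250 genes were called in siCtrl_Sen against siCtrl_Prolif, siNTRK2_Sen against siCtrl_Sen, siBDNF_Sen against siCtrl_Sen and siNTRK2_Sen against siBDNF_Sen, in place of 12501, 4548, 4412 and 3595, and 3, 0, 0 and 0 HOX genes in place of 8, 4, 1 and 3. With library totals only, 2 HOX genes were called with siBDNF and 5 between the silenced groups. With a mean of at least 1 CPM in some group as the rule for detection, 13 HOX genes were expressed in place of 20. With a library left out, the counts in the same order were 11398 to 12153, 2961 to 4822, 2988 to 4689 and 2287 to 3269 for all genes, and 6 to 9, 2 to 5, 1 to 1 and 1 to 3 for HOX genes. With siNTRK2, 2 HOX genes were called without siCtrl_Sen replicate 1, siCtrl_Sen replicate 3 or siNTRK2_Sen replicate 2. Between the silenced groups, 1 was called without siBDNF_Sen replicate 3, with 2287 genes in all, and 2961 genes were called with siNTRK2 without siCtrl_Sen replicate 1.

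With the replicate number as a block, 12488, 4553, 4434 and 3621 genes and 8, 3, 1 and 4 HOX genes were called; HOXB8 was lost with siNTRK2 (adjusted p = 0.0531) and HOXB6 was gained between the silenced groups (adjusted p = 0.0455). The numbers did not pair the libraries: the mean correlation of deviations was 0.0076 over 18 pairs of the same number and −0.0038 over 36 others, and 4 of 12 libraries correlated best with their own number. The block changed no other HOX call.

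All values that changed sign were uncalled, some near 0 and others further from it, such as HOXC6 with siNTRK2 at 0.62 in the fit reported. With siBDNF, HOXA2 was −0.0020 and HOXA3 −0.0013 with DESeq2, −0.0017 and −0.00050 with its size factors, −0.0021 and −0.0018 in a fit of the compared groups alone, and HOXA2 was −0.011 with the block. With library totals, HOXB2 was 0.026 with siBDNF and HOXB3 was −0.028 between the silenced groups. HOXA9 was −0.0039 between the silenced groups with the block. With a library left out, values ranged for siCtrl_Sen against siCtrl_Prolif from −0.10 to 0.17 for HOXA4, −0.086 to 0.20 for HOXA6, −0.20 to 0.24 for HOXA10, −0.031 to 0.12 for HOXB3 and −0.49 to 0.13 for HOXC6. For siNTRK2_Sen against siCtrl_Sen they ranged from −0.46 to 0.37 for HOXA11, −0.10 to 0.032 for HOXB7 and −0.12 to 0.97 for HOXC6. For siBDNF_Sen against siCtrl_Sen they ranged from −0.12 to 0.10 for HOXA2, −0.030 to 0.046 for HOXA3, −0.024 to 0.25 for HOXA4, −0.32 to 0.31 for HOXA6, −0.0026 to 0.15 for HOXB3, −0.14 to 0.42 for HOXB9 and −0.62 to 0.14 for HOXC6. For siNTRK2_Sen against siBDNF_Sen they ranged from −0.60 to 0.46 for HOXA9, −0.31 to 0.34 for HOXA10, −0.043 to 0.011 for HOXB2, −0.029 to 0.065 for HOXB3 and −0.39 to 0.087 for HOXC8.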
